A study of Mus musculus with 4 samples.

Results

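The genes described here encode the machinery that brings proteins into the endoplasmic reticulum (ER), folds and glycosylates them there, removes those that fail, and senses ER stress. They were chosen by symbol from a list of 56 genes, all of which were found among the 55401 genes of the deposited tables. *Ddit3* has a further table entry with 0 reads in all 4 libraries, so the symbols match 57 entries, and only the entry with reads was used. The RNA came from cells carrying CD45, a surface protein of all leukocytes, which were sorted by flow cytometry out of the dura, the tough outer layer of the meninges. Male wild-type C57BL/6J mice had received 2 μl of an adeno-associated virus (AAV) into the cisterna magna at 4 wk of age, and the age at collection is not given in the sources used here. AAV-mVEGF-C encodes full-length mouse VEGF-C, a growth factor of lymphatic vessels, and AAV-CTRL encodes part of the VEGFR-3 ectodomain joined to an immunoglobulin tail, which is described as not binding VEGF-C. Each group had 2 libraries, each made from the pooled cells of 10 to 12 mice, so that individual animals cannot be followed and a p-value measures the spread between these pools.

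A protein bound for secretion is recognised by the signal recognition particle as it leaves the ribosome, is docked at the particle's receptor, and is threaded through the Sec61 channel into the ER. Signal peptidase then cuts off its signal sequence, oligosaccharyltransferase adds sugar chains, and chaperones and disulfide isomerases fold it. When unfolded proteins build up, the sensors IRE1, PERK, and ATF6 start the unfolded protein response, which raises the transcription of many of these genes. Leukocytes use this machinery for granule proteins, cytokines, and surface receptors, and it is expanded most in plasma cells, which derive from B cells and secrete antibody, under the transcription factor XBP1.

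The libraries held 46409700 reads assigned to genes for AAV-CTRL 1, 33336071 for AAV-CTRL 2, 38052048 for AAV-mVEGF-C 1, and 32520709 for AAV-mVEGF-C 2. *Ptprc*, which encodes CD45, was at 946 to 1151 CPM (counts-per-million units, the reads of a gene relative to the depth of its library) in the 4 libraries. Each control library stood apart from the others in some measures. AAV-CTRL 1 had the most reads and the fewest detected genes, 20990 against 29221 to 37512, and a summed level of 11 neutrophil markers of 28549 CPM against 12451 to 18106 CPM. AAV-CTRL 2 had the lowest sum of these markers, 12451 CPM against 16489 to 28549 CPM. Its 11 B cell markers summed to 812 CPM against 372 to 433 CPM in the others. For these reasons the median of each role, and each gene of the module whose groups did not overlap, is also given with AAV-CTRL 1 or AAV-CTRL 2 left out. Markers of fibroblasts were detected as well. The 6 fibroblast markers, none of them at 0, summed to 653 and 1042 CPM in the controls and to 354 and 549 CPM with AAV-mVEGF-C. Fewer cells of a type and less RNA per cell cannot be told apart in such bulk samples.

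Across the module as a whole, the data showed no difference between AAV-mVEGF-C and AAV-CTRL that passed the test. All 56 genes passed edgeR's filter on low counts and were tested together with all 19806 genes that passed it. With Benjamini-Hochberg adjustment, edgeR's quasi-likelihood test called 0 of the 56 genes (adjusted p = 0.999 for each), where it called 0% of all genes tested. DESeq2 also called 0 of the 56, where it called 0.389% of all genes. At an unadjusted p under 0.05, 1 of the 56 was higher in edgeR, *Txndc5*, and 0 were lower, against 1.46% and 1.18% of all genes tested. Without AAV-CTRL 1, edgeR called 0 of the 56 genes, against 1.07% of all genes. Without AAV-CTRL 2, it called 3, *Ssr3*, *Derl3*, and *Txndc5*, against 9.08% of all genes.

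The measured differences were small. Of the 56 genes, 20 (35.7%) had a log2 fold change above 0 and 36 below it, and the median was −0.06 against 0.00 for all genes tested. Among all genes tested, 50.4% lay above 0. Among the 4819 genes at least as abundant as the lower quartile of the module, 47.2% did so, with a median of −0.01. For 54 of the 56 the 95% interval of the difference lay within a 2-fold change in either direction, which held for 44.9% of all genes tested. The exceptions were *Derl3* and *Fkbp11*, the least abundant genes of the module. Most genes of the module were more abundant than most genes tested, and their median standard error was 0.18 against 0.34 for all genes tested. The share with such an interval among genes of like abundance was not computed, so the 44.9% is not a like comparison. Both AAV-mVEGF-C libraries lay above both AAV-CTRL libraries for 9 of the 56 genes, where 16.8% of all genes tested did so, and below both for 7, where 15.2% did so. Those that lay above were *Derl3*, *Fkbp11*, *Txndc5*, *Creld2*, *Ern1*, *Pdia4*, *Ssr4*, *Atf6*, and *Hsp90b1*, and those that lay below were *Srprb*, *Ddit3*, *Manf*, *Sec11a*, *Srp9*, *Srp14*, and *Hspa5*.

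**Figure D1:**
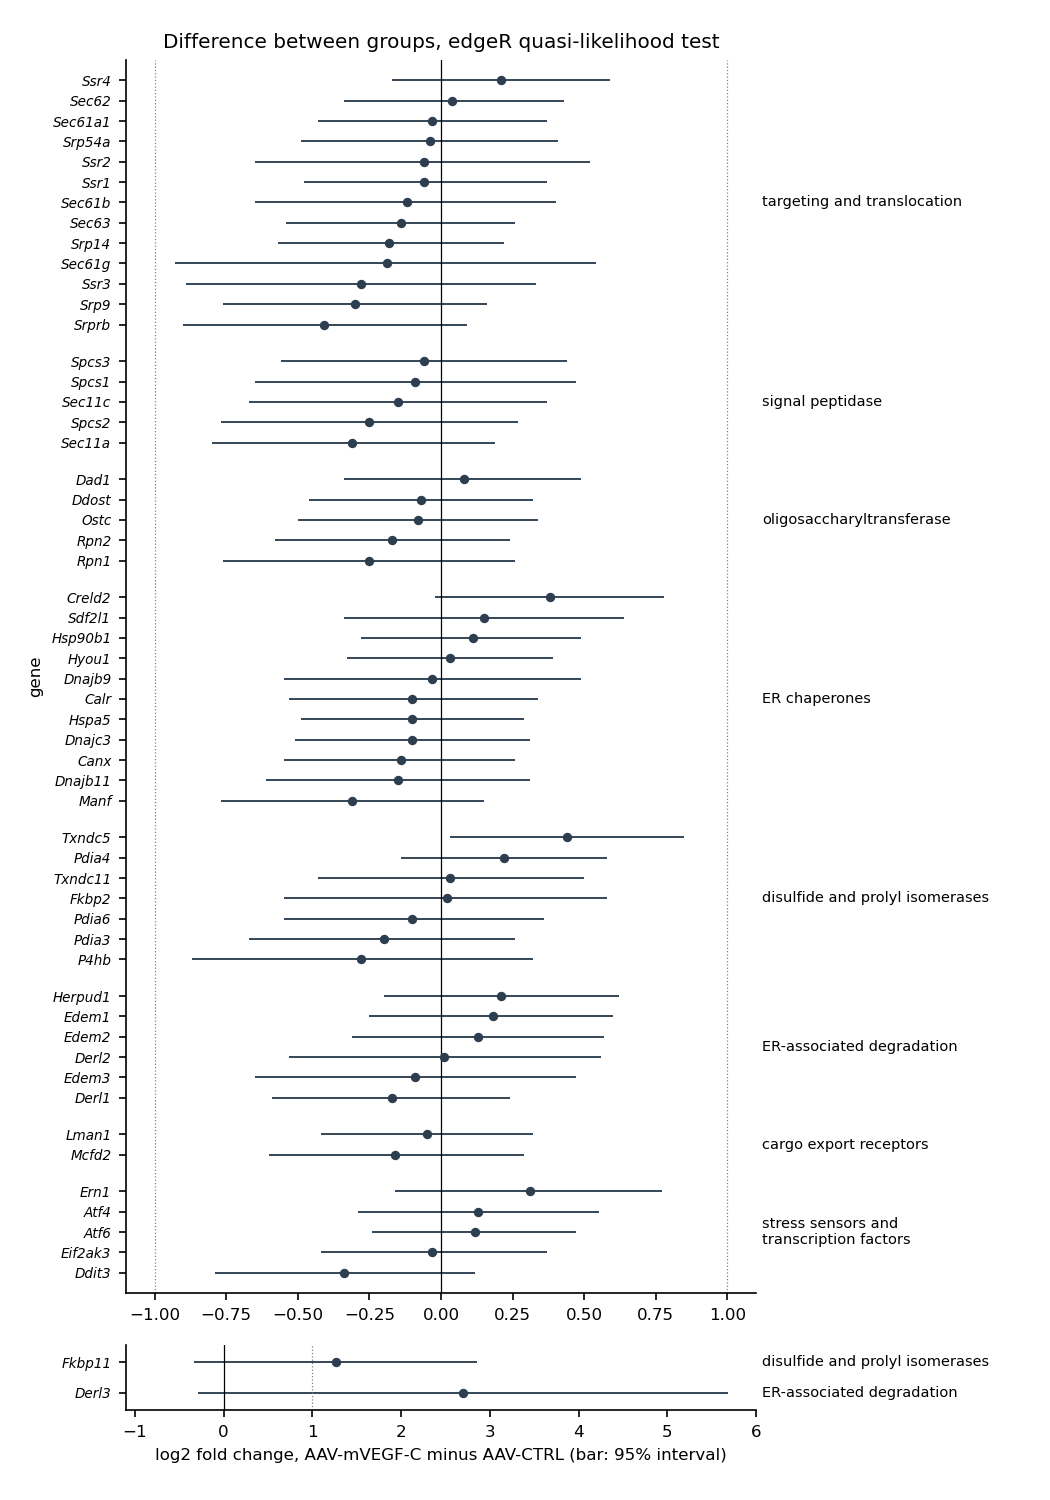
Log2 fold change of AAV-mVEGF-C against AAV-CTRL (x axis) for each gene (y axis), grouped by role, with its 95% interval from edgeR's quasi-likelihood test as a bar. *Derl3* and *Fkbp11* have a panel of their own with a wider axis, the interval of *Txndc5* alone leaves out 0, and 54 of the 56 intervals lie inside the dotted lines that mark a 2-fold difference.

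The direction of most of these differences depended on which libraries were included. AAV-CTRL 1 was the highest of the 4 libraries for 28 of the 56 genes (50%), against 32.6% of all genes tested and 43% of the 4819 genes at least as abundant as the lower quartile of the module. Without AAV-CTRL 1 the median log2 fold change was 0.05 with 37 genes higher, and without AAV-CTRL 2 it was −0.16 with 19 genes higher. In the fit of all libraries and in each of the 4 fits that left out a library, 12 genes were higher throughout, 13 were lower throughout, and 31 took both directions. Among all genes tested the shares were 23.7%, 21.7%, and 54.6%, so the module was close to the background in this respect.

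**Figure D2:**
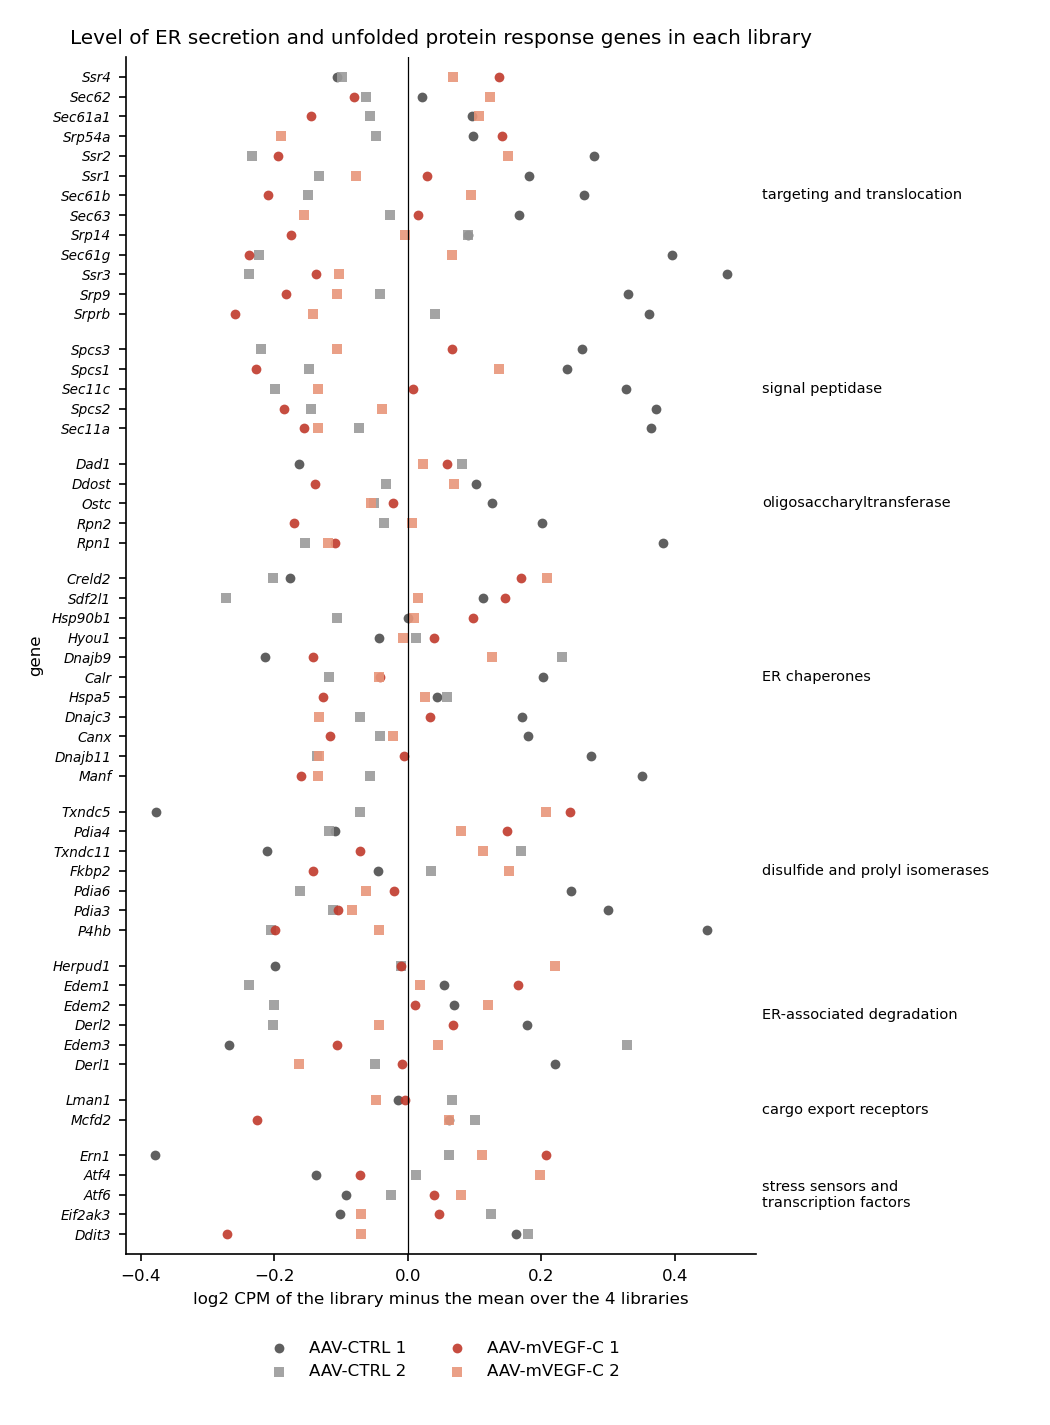
Log2 CPM of each library minus the mean over the 4 libraries (x axis) for 54 of the 56 genes (y axis), grouped by role, without *Derl3* and *Fkbp11*, whose spread is wider. AAV-CTRL 1, in dark grey, lies furthest right for the 5 signal peptidase genes and for 9 of the 13 genes of targeting and translocation.

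**Figure D3:**
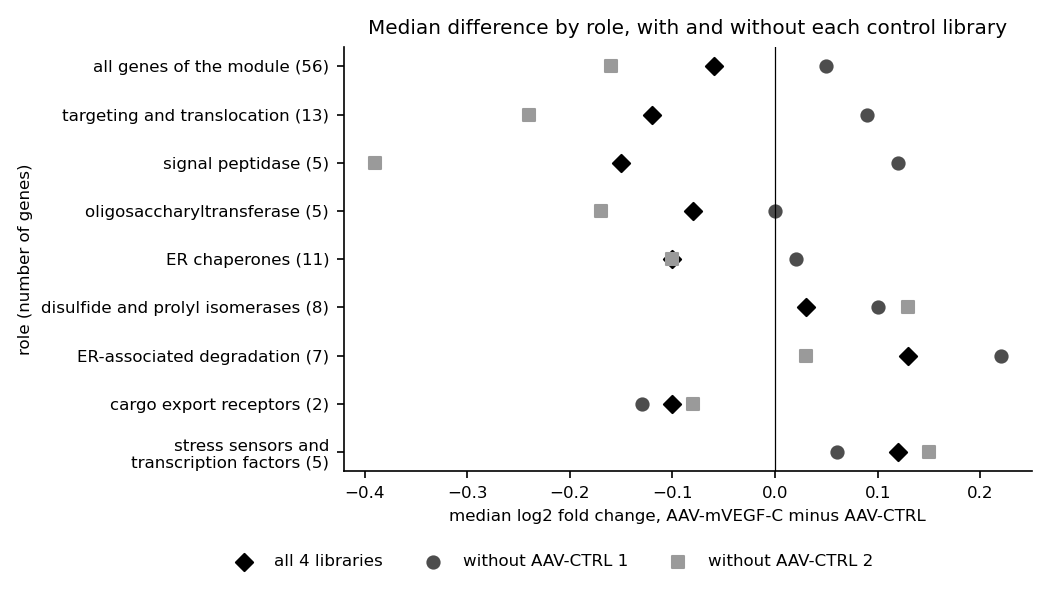
Median log2 fold change of AAV-mVEGF-C against AAV-CTRL (x axis) for the module and for each role (y axis, number of genes in brackets), in the fit of all 4 libraries and in those without AAV-CTRL 1 or AAV-CTRL 2. For signal peptidase the median was −0.15 with all libraries, 0.12 without AAV-CTRL 1, and −0.39 without AAV-CTRL 2.

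Per length, the module took up a modest share of the transcripts. The TPM (transcripts-per-million units, scaled for gene length) of the 56 genes summed to 2945 and 2711 in AAV-CTRL and to 2397 and 2499 in AAV-mVEGF-C. The mean was 2828 ± 165 TPM (SD, n = 2 pools) in AAV-CTRL and 2448 ± 72.1 TPM in AAV-mVEGF-C, a ratio of 0.866. On 2 other scales the groups were closer. The summed CPM had a ratio of 0.969, and the TPM taken as a share of the TPM of all protein-coding genes had a ratio of 1.02. Protein-coding genes held 37.3% and 34.1% of all TPM in AAV-CTRL and 28.7% and 31.7% in AAV-mVEGF-C, so the lower sum of the module on the TPM scale moved with a lower share of protein-coding transcripts. Differences of single genes are therefore given on the CPM scale with edgeR's TMM scaling.

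Levels within the module differed widely in TPM. *Calr*, the lectin chaperone calreticulin, was the most abundant at a mean of 324 TPM over the 4 libraries, above 98.8% of all genes tested. It was followed by *Hsp90b1* (201 TPM), *Canx* (171 TPM), and *Hspa5* (168 TPM), all chaperones, and the 9 most abundant genes held 50.9% of the summed TPM. At the other end stood *Derl2* (5.95 TPM), *Srprb* (5.11 TPM), *Derl3* (2.21 TPM), and *Fkbp11* (1.52 TPM). *Calr* (292 to 377 TPM over the 4 libraries) lay above *Hsp90b1* (196 to 207 TPM) in every library, and *Hsp90b1* lay above *Hspa5* (153 to 193 TPM), whereas the range of *Canx* (141 to 212 TPM) spanned both of the latter.

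Many of these genes share short promoter elements through which the unfolded protein response acts, and their sequences are shown here because the genes that carry the same element can be set side by side. In RefSeq promoters on GRCm38.p6, taken from 250 bases before to 50 bases after the start, 46 of the 56 genes had an entry. The ER stress response element, searched on both strands as CCAAT and CCACG 9 bases apart, stood in 8 of the 46 (17.4%) and in 0.137% of the 27025 genes with a promoter entry. A shorter form, ATTGG and CCACG 1 base apart, stood in 2 of the 46 (4.35%) against 0.0444%, and the core bound by ATF6 and related factors, TGACGTG, in 4 (8.7%) against 2.22%. An element of ATF4 targets, TGATG and CAAT 0 to 2 bases apart, stood in 0 of the 46 against 1.06%. A match of letters describes the sequence and does not show that a factor binds there. The lines below give 29 bases around each element, with the element in capitals, read on the strand named.
*Hspa5*, chr2:34772020-34772048, plus strand: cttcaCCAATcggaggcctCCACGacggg
*Hsp90b1*, chr10:86705528-86705556, plus strand: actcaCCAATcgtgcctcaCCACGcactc
*Hsp90b1*, chr10:86705633-86705661, minus strand: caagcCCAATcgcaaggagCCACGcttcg
*Calr*, chr8:84847070-84847098, plus strand: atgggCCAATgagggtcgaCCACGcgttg
*Canx*, chr11:50325795-50325823, minus strand: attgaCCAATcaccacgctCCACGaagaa
*Dnajc3*, chr14:118937822-118937850, plus strand: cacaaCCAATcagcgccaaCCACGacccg
*Creld2*, chr15:88819515-88819543, minus strand: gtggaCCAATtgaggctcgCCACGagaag
*Derl3*, chr10:75893237-75893265, minus strand: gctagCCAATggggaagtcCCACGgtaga
*Pdia6*, chr12:17266486-17266514, plus strand: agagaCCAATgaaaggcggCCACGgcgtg
*Herpud1*, shorter form, chr8:94386368-94386396, plus strand: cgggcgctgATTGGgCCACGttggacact
*Dnajb11*, shorter form, chr16:22857843-22857871, plus strand: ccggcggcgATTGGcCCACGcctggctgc
*Txndc5*, ATF6 core, chr13:38528035-38528063, minus strand: ggcctcgccgcTGACGTGgcgctagccgc
*Fkbp11*, ATF6 core, chr15:98727610-98727638, plus strand: caagccaaagcTGACGTGtttcagccggg
*Hspa5*, ATF6 core, chr2:34771922-34771950, plus strand: gggcgtagcaaTGACGTGagttgcggagg
*Txndc11*, ATF6 core, chr16:11134566-11134594, minus strand: aggtccgggagTGACGTGcggggccgggt
*Txndc11*, ATF6 core, chr16:11134617-11134645, minus strand: tgaagtgtggcTGACGTGgagagtccggg

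Genes with the same element did not share a direction. Of the 8 genes with the longer ER stress response element, 3 had a log2 fold change above 0, *Derl3* (2.70), *Creld2* (0.38), and *Hsp90b1* (0.11). The other 5, *Hspa5*, *Calr*, *Canx*, *Dnajc3*, and *Pdia6*, lay between −0.14 and −0.10, and the median of the 8 was −0.10. Without AAV-CTRL 1 this median was 0.10 with 6 of 8 above 0, and without AAV-CTRL 2 it was −0.16 with 3 of 8 above 0. The 4 genes with the ATF6 core, which besides *Txndc5*, *Fkbp11*, and *Hspa5* include *Txndc11*, had a median of 0.24 with 3 of 4 above 0, which became 0.10 with 2 of 4 above 0 without AAV-CTRL 1 and 0.41 with 3 of 4 above 0 without AAV-CTRL 2. With all 4 libraries and the filter on low counts none of these differences passed edgeR's test after adjustment, and the fits that called *Derl3* and *Txndc5* are given with those genes.

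For the genes that target nascent chains to the ER and move them across its membrane, the groups overlapped in 9 of 13, with 3 below both controls and 1 above them, against 15.2% and 16.8% of all genes tested. Of these 13 genes, 2 had a log2 fold change above 0 and 11 below it, with a median of −0.12 and a range of −0.41 to 0.21, and 0 of them passed the test. AAV-CTRL 1 was the highest library for 9 of the 13, and without it the median was 0.09 with 9 of 13 genes above 0, against −0.24 with 1 of 13 above 0 without AAV-CTRL 2. The largest difference was that of *Srprb*, the subunit that anchors the signal recognition particle receptor in the membrane (ENSMUSG00000032553.14; GRCm38 chromosome 9, 103188032 to 103202137, minus strand). It was at 27.2 and 21.8 CPM in the controls and at 17.7 and 19.2 CPM with AAV-mVEGF-C. Both AAV-mVEGF-C libraries lay below both controls, and the log2 fold change was −0.41 (standard error 0.20; 95% interval −0.90 to 0.09; edgeR quasi-likelihood test, adjusted p = 0.999). It was −0.24 without AAV-CTRL 1 and −0.56 without AAV-CTRL 2.

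*Srp9*, a protein of the signal recognition particle's Alu domain, was at 58.2 and 45 CPM in the controls and at 40.8 and 43 CPM with AAV-mVEGF-C, a log2 fold change of −0.30 (standard error 0.19). Its partner in that domain, *Srp14*, was at 45.8 CPM in both controls and at 38.1 and 42.9 CPM with AAV-mVEGF-C, a log2 fold change of −0.18 (standard error 0.16). Both genes thus had their groups apart, although AAV-CTRL 2 was nearer to the AAV-mVEGF-C libraries than to AAV-CTRL 1 for *Srp9*. The log2 fold change of *Srp9* was −0.10 without AAV-CTRL 1 and −0.48 without AAV-CTRL 2, and that of *Srp14* was −0.18 in either case. *Srp54a*, which binds the signal sequence, was at 43.5 to 54.7 CPM with overlapping groups. Reads of *Srp54a* can be divided with the near-identical *Srp54b* and *Srp54c*, and its level is uncertain, as are those of *Srp9*, *Sec61b*, and *Sec61g*, whose read counts were not whole.

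*Sec61a1*, the pore of the translocation channel, differed least in this role, at 130 and 117 CPM in the controls and 110 and 131 CPM with AAV-mVEGF-C. The groups overlapped, with a log2 fold change of −0.03 (standard error 0.17) that was 0.30 on the log2(TPM + 1) scale. The small channel subunits *Sec61b* (−0.12) and *Sec61g* (−0.19) and the helpers *Sec62* (0.04) and *Sec63* (−0.14) also overlapped between groups. Of the 4 subunits of the translocon-associated protein complex, *Ssr4* was the exception. It was at 39.8 and 40.0 CPM in the controls and at 47.1 and 44.9 CPM with AAV-mVEGF-C, so both AAV-mVEGF-C libraries exceeded both controls, with a log2 fold change of 0.21 (standard error 0.16; 95% interval −0.17 to 0.59). It was 0.20 without AAV-CTRL 1 and 0.21 without AAV-CTRL 2, but −0.02 on the log2(TPM + 1) scale, where the controls, at 52.3 and 47.4 TPM, lay around the AAV-mVEGF-C libraries, at 49.3 and 49 TPM. *Ssr1* (−0.06), *Ssr2* (−0.06), and *Ssr3* (−0.28) overlapped between groups. *Ssr3* was at 184 CPM in AAV-CTRL 1 and at 112 to 123 CPM in the other 3 libraries, and its log2 fold change was 0.12 without AAV-CTRL 1 and −0.60 without AAV-CTRL 2.

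Signal peptidase, which cuts the signal sequence from the growing chain, was the role whose median moved most when a control library was left out. All 5 genes of the complex lay below 0, with a median of −0.15, and AAV-CTRL 1 was the highest library for all 5. *Sec11a*, a catalytic subunit, was at 49.3 and 36.4 CPM in the controls and at 34.4 and 34.9 CPM with AAV-mVEGF-C, a log2 fold change of −0.31 (standard error 0.20; 95% interval −0.80 to 0.19). Its groups were apart, but AAV-CTRL 2 was nearer to both AAV-mVEGF-C libraries than to AAV-CTRL 1, and its log2 fold change was −0.07 without AAV-CTRL 1 and −0.51 without AAV-CTRL 2. *Spcs2* was at 88, 61.5, 59.8, and 66.2 CPM in the order AAV-CTRL 1, AAV-CTRL 2, AAV-mVEGF-C 1, and AAV-mVEGF-C 2 (−0.25, standard error 0.21), and *Spcs3* at 110, 78.8, 96.1, and 85.3 CPM (−0.06, standard error 0.20). Without AAV-CTRL 1, 4 of the 5 genes lay above 0, and the median was 0.12, against −0.39 without AAV-CTRL 2. AAV-CTRL 1 was also the highest library for 10 of the 11 neutrophil markers and for all 6 mast cell markers, none at 0, which summed to 2093 and 1481 CPM in the controls and to 1203 and 1277 CPM with AAV-mVEGF-C. Their part in the signal peptidase levels was not tested.

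Oligosaccharyltransferase, which attaches N-linked sugar chains, had 1 of its 5 measured subunits above 0 and a median of −0.08 (0.00 without AAV-CTRL 1 and −0.17 without AAV-CTRL 2). *Rpn1* was at 184 and 127 CPM in the controls and at 131 and 130 CPM with AAV-mVEGF-C, a log2 fold change of −0.25 (standard error 0.21). AAV-CTRL 1 alone stood out, and without it the log2 fold change was 0.04. *Rpn2* was at 198 and 168 CPM in the controls and at 153 and 173 CPM with AAV-mVEGF-C (−0.17, standard error 0.17), and *Ddost* at 96.9 and 88.2 CPM and at 82 and 94.7 CPM (−0.07, standard error 0.16). The groups overlapped for both, as they did for *Ostc* (−0.08) and *Dad1* (0.08).

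Among the 11 ER chaperones and co-chaperones, 4 had a log2 fold change above 0, with a median of −0.10 and a range of −0.31 to 0.38. Without AAV-CTRL 1 the median was 0.02 with 7 of 11 above 0, and without AAV-CTRL 2 it was again −0.10 with 4 of 11 above 0. *Hspa5* encodes BiP, the HSP70 chaperone of the ER and the gene most often read as a gauge of the unfolded protein response (ENSMUSG00000026864.13; chromosome 2, 34771970 to 34777547, plus strand). It was at 582 and 588 CPM in the controls and at 517 and 575 CPM with AAV-mVEGF-C. Both AAV-mVEGF-C libraries lay below both controls by a small margin, with a log2 fold change of −0.10 (standard error 0.16; 95% interval −0.49 to 0.29), so that a rise of more than 1.22-fold lay outside the interval. It was −0.11 without AAV-CTRL 1 and −0.10 without AAV-CTRL 2. *Hsp90b1*, the ER form of HSP90 that chaperones integrins and Toll-like receptors, was at 711 and 660 CPM in the controls and at 760 and 715 CPM with AAV-mVEGF-C. Its groups were apart by a small margin, with a log2 fold change of 0.11 (standard error 0.16; 95% interval −0.28 to 0.49) that was −0.02 on the log2(TPM + 1) scale, 0.16 without AAV-CTRL 1 and 0.05 without AAV-CTRL 2.

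*Creld2*, an ER stress-inducible cofactor of folding, had the largest difference among the chaperones (ENSMUSG00000023272.4; chromosome 15, 88819646 to 88826683, plus strand). It was at 28.7 and 28.2 CPM in the controls and at 36.5 and 37.5 CPM with AAV-mVEGF-C. Both AAV-mVEGF-C libraries exceeded both controls, and the libraries of a group lay close to each other. The mean was 28.5 ± 0.38 CPM (SD, n = 2 pools) in the controls and 37 ± 0.731 CPM with AAV-mVEGF-C. The log2 fold change was 0.38 (standard error 0.16; 95% interval −0.02 to 0.78; edgeR quasi-likelihood test, adjusted p = 0.999), and it was 0.36 to 0.40 with each library left out and 0.21 on the log2(TPM + 1) scale. The 170 bases before its RefSeq start, chr15:88819476-88819645 on the plus strand, carry the ER stress response element on the opposite strand, with both of its parts in capitals here.
*Creld2* promoter: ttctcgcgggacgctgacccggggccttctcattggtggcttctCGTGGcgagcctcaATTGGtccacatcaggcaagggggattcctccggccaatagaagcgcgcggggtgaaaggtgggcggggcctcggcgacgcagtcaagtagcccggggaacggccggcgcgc

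*Manf*, another ER stress-inducible gene, whose product binds BiP, went the other way. It was at 81.2 and 61.2 CPM in the controls and at 57 and 58 CPM with AAV-mVEGF-C, a log2 fold change of −0.31 (standard error 0.19; 95% interval −0.77 to 0.15). The groups were apart, but the gap to AAV-CTRL 2 was small, and the log2 fold change was −0.09 without AAV-CTRL 1, −0.50 without AAV-CTRL 2, and −0.56 on the log2(TPM + 1) scale. *Dnajb9*, a co-chaperone of BiP and a target of the IRE1 branch, differed least, at 36.8 and 50.1 CPM in the controls and at 38.7 and 46.6 CPM with AAV-mVEGF-C (−0.03, standard error 0.21). The remaining chaperones, the lectin chaperones *Calr* (−0.10) and *Canx* (−0.14), the nucleotide exchange factor *Hyou1* (0.03), the BiP co-chaperones *Dnajb11* (−0.15) and *Dnajc3* (−0.10), and *Sdf2l1* (0.15), overlapped between groups.

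The disulfide and prolyl isomerases included the gene with the lowest unadjusted p of the module. Of these 8 genes, 5 had a log2 fold change above 0, with a median of 0.03 (0.10 without AAV-CTRL 1 and 0.13 without AAV-CTRL 2). *Txndc5*, a disulfide isomerase (ENSMUSG00000038991.17; chromosome 13, 38500079 to 38528824, minus strand), was at 80.7 and 99.8 CPM in the controls and at 124 and 121 CPM with AAV-mVEGF-C. Both AAV-mVEGF-C libraries exceeded both controls. The log2 fold change was 0.44 (standard error 0.17; 95% interval 0.03 to 0.85), with an unadjusted p of 0.0385 and an adjusted p of 0.999 in the edgeR quasi-likelihood test. Without AAV-CTRL 2 it was 0.60 (adjusted p = 0.0431 in that edgeR fit), and without AAV-CTRL 1 it was 0.30 (adjusted p = 0.768). With the experiment number of the titles as a replicate block it was 0.45, with an unadjusted p of 0.0552 in edgeR. On the log2(TPM + 1) scale the log2 fold change of *Txndc5* was 0.30, with an unadjusted p of 0.197 in limma.

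*Fkbp11*, a prolyl isomerase anchored in the ER membrane and found at high levels in secretory cells, was the least abundant gene of the module (ENSMUSG00000003355.7; chromosome 15, 98724366 to 98728198, minus strand). It had 50 and 19 reads in AAV-CTRL and 90 and 55 reads in AAV-mVEGF-C, which is 1.12 and 0.552 CPM against 2.30 and 1.74 CPM. Both AAV-mVEGF-C libraries exceeded both controls, with a log2 fold change of 1.27 (standard error 0.65; 95% interval −0.33 to 2.86; edgeR quasi-likelihood test, adjusted p = 0.999). It was 1.87 without AAV-CTRL 1, 0.85 without AAV-CTRL 2, and 0.57 on the log2(TPM + 1) scale. *Pdia4* was at 144 and 143 CPM in the controls and at 172 and 164 CPM with AAV-mVEGF-C, also with its groups apart (0.22, standard error 0.15; 95% interval −0.14 to 0.58, with 0.23 without AAV-CTRL 1, 0.21 without AAV-CTRL 2, and 0.08 on the log2(TPM + 1) scale). *Fkbp2* was at 12.3 and 13 CPM in the controls and at 11.5 and 14.1 CPM with AAV-mVEGF-C (0.02, standard error 0.23). The other isomerases overlapped between groups, and *P4hb* (−0.28) and *Pdia3* (−0.20), abundant disulfide isomerases, were highest in AAV-CTRL 1 at 481 and 475 CPM and were at 0.09 and 0.02 on the log2 scale without it.

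ER-associated degradation, which draws misfolded proteins back to the cytosol, had 5 of 7 genes above 0 and a median of 0.13 (0.22 without AAV-CTRL 1 and 0.03 without AAV-CTRL 2), and held the largest difference of the module. *Derl3* encodes a derlin, a membrane protein of the retrotranslocation machinery that is expressed mainly in secretory cells (ENSMUSG00000009092.5; chromosome 10, 75893413 to 75895941, plus strand). It had 2 and 55 reads in AAV-CTRL and 232 and 145 reads in AAV-mVEGF-C. In CPM these were 0.0447 and 1.60 against 5.94 and 4.57. Both AAV-mVEGF-C libraries exceeded both controls, and the controls differed from each other far more than the AAV-mVEGF-C libraries did. The log2 fold change was 2.70 (standard error 1.23; 95% interval −0.29 to 5.68; edgeR quasi-likelihood test, adjusted p = 0.999), a 6.48-fold difference with an interval of 0.818 to 51.4.

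The size of the *Derl3* difference depended on the controls and the scale, and its call on the controls and the filter. It was 4.48 in limma-voom and 1.68 on the log2(TPM + 1) scale, where the added 1 shrinks the values of a gene at this level. Against AAV-CTRL 2 alone the log2 fold change was 1.72 (adjusted p = 0.116 from edgeR), and against AAV-CTRL 1 alone, with its 2 reads, it was 6.77 (adjusted p = 0.00158). Taken from the reads alone, the ratio of both AAV-mVEGF-C libraries to AAV-CTRL 1 was 119, with an exact 95% counting interval of 32.7 to 985 that covers counting error only. Without the filter on low counts edgeR called *Derl3* (adjusted p = 0.00365), where it called 0.659% of all genes. With the experiment number as the block the log2 fold change was 3.68, and it had an unadjusted p of 0.0251 and was not called, where 0.0555% of all genes were. In DESeq2 the log2 fold change was 2.69 (adjusted p = 1). The 170 bases before its RefSeq start, chr10:75893228-75893397 on the plus strand, carry the ER stress response element on the opposite strand, in capitals.
*Derl3* promoter: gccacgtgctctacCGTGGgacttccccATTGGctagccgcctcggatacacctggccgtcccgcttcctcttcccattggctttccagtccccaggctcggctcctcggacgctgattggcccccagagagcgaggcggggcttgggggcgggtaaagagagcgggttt

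The other derlins did not follow *Derl3*. *Derl2* was at 19 and 14.6 CPM in the controls and at 17.6 and 16.3 CPM with AAV-mVEGF-C (0.01, standard error 0.22), and *Derl1* was at 68.7 to 89.6 CPM over the 4 libraries (−0.17, standard error 0.17). *Herpud1*, a stress-inducible adaptor of the degradation complex, was at 136 and 155 CPM in the controls and at 155 and 182 CPM with AAV-mVEGF-C, with AAV-CTRL 2 level with AAV-mVEGF-C 1 (0.21, standard error 0.17). The mannosidase-like genes *Edem1* (0.18), *Edem2* (0.13), and *Edem3* (−0.09), which mark glycoproteins for removal, overlapped between groups.

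**Figure D4:**
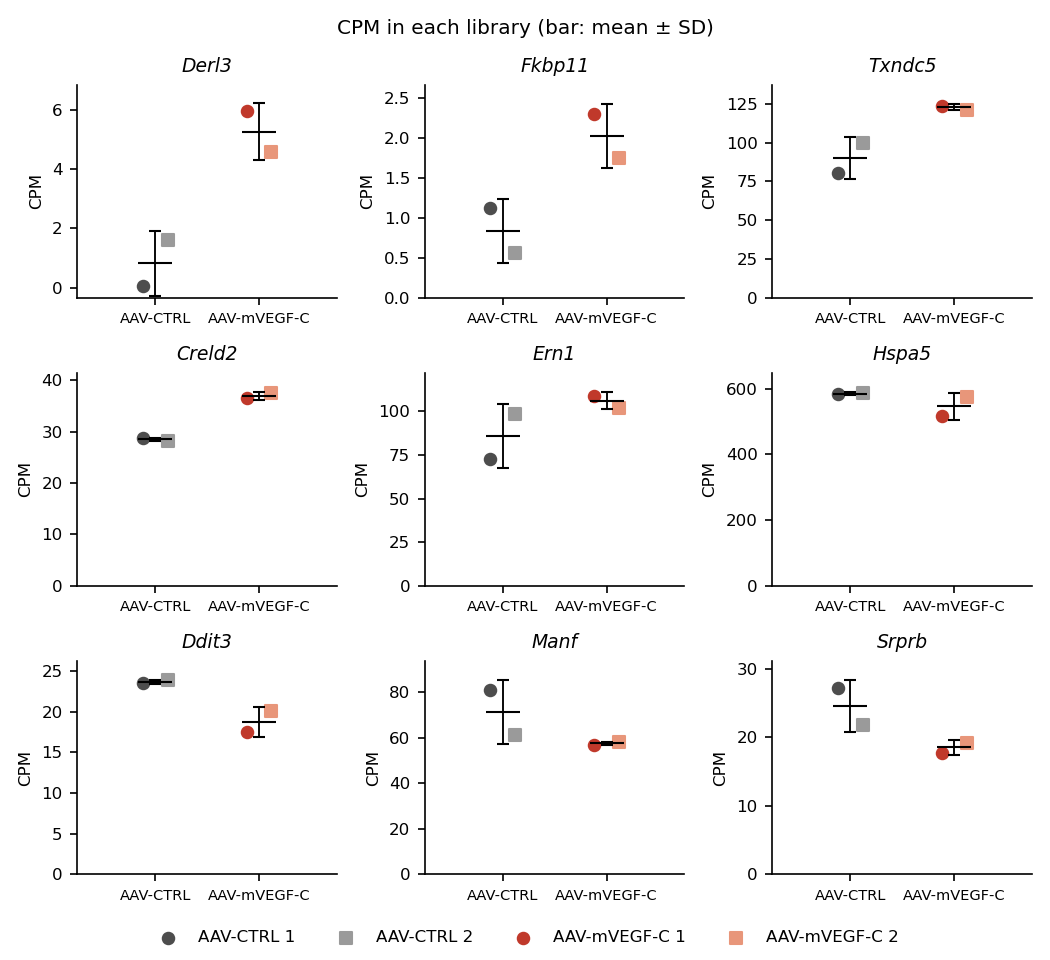
CPM (y axis) of 9 genes in each library (points) with the mean and SD of each group (bars, n = 2 pools). *Derl3*, *Fkbp11*, *Txndc5*, *Creld2*, and *Ern1* have both AAV-mVEGF-C points above the controls, and *Hspa5*, *Ddit3*, *Manf*, and *Srprb* have both below, with 0.0447 and 1.60 CPM in the controls of *Derl3*.

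The sensors and transcription factors of the unfolded protein response were mixed, with 3 of 5 genes above 0 and a median of 0.12 (0.06 without AAV-CTRL 1 and 0.15 without AAV-CTRL 2). *Ern1*, which encodes the sensor IRE1, was at 72.6 and 98.5 CPM in the controls and at 109 and 102 CPM with AAV-mVEGF-C (ENSMUSG00000020715.9; chromosome 11, 106394650 to 106487852, minus strand). Its groups were apart, with a log2 fold change of 0.31 (standard error 0.19; 95% interval −0.16 to 0.77), but AAV-CTRL 2 was nearer to both AAV-mVEGF-C libraries than to AAV-CTRL 1, and it was 0.10 without AAV-CTRL 1 and 0.54 without AAV-CTRL 2. *Atf6*, the sensor that is cut in the Golgi to release a transcription factor, was at 126 and 132 CPM in the controls and at 138 and 142 CPM with AAV-mVEGF-C (0.12, standard error 0.15, with −0.01 on the log2(TPM + 1) scale, 0.09 without AAV-CTRL 1 and 0.15 without AAV-CTRL 2). *Eif2ak3*, which encodes PERK, was at 69.8 and 81.7 CPM in the controls and at 77.4 and 71.4 CPM with AAV-mVEGF-C, with overlapping groups (−0.03, standard error 0.16).

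Downstream of PERK, *Atf4* was at 210 and 233 CPM in the controls and at 220 and 265 CPM with AAV-mVEGF-C, again with overlapping groups (0.13, standard error 0.17, and −0.01 on the log2(TPM + 1) scale). Its activity is set largely by translation, which these libraries do not measure. *Ddit3* encodes CHOP, the factor tied to cell death under lasting ER stress (ENSMUSG00000025408.15; chromosome 10, 127290774 to 127296288, plus strand). It was at 23.6 and 23.9 CPM in the controls and at 17.5 and 20.1 CPM with AAV-mVEGF-C. Both AAV-mVEGF-C libraries lay below both controls, which were close together, and the log2 fold change was −0.34 (standard error 0.19; 95% interval −0.79 to 0.12; edgeR quasi-likelihood test, adjusted p = 0.999). It lay between −0.44 and −0.23 with each library left out and was −0.55 on the log2(TPM + 1) scale, opposite in sign to that of the stress-inducible *Creld2*.

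*Lman1* and *Mcfd2*, which together form a receptor that exports cargo from the ER, showed little difference, with a median of −0.10 (−0.13 without AAV-CTRL 1 and −0.08 without AAV-CTRL 2). *Lman1* was at 53.8 and 56.9 CPM in the controls and at 54.2 and 52.6 CPM with AAV-mVEGF-C (−0.05, standard error 0.15). *Mcfd2* was at 33.2 and 34.1 CPM in the controls and at 27.2 and 33.2 CPM with AAV-mVEGF-C (−0.16, standard error 0.18). The groups overlapped for *Lman1*, and for *Mcfd2* the libraries AAV-CTRL 1 and AAV-mVEGF-C 2 were level.

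**Figure D5:**
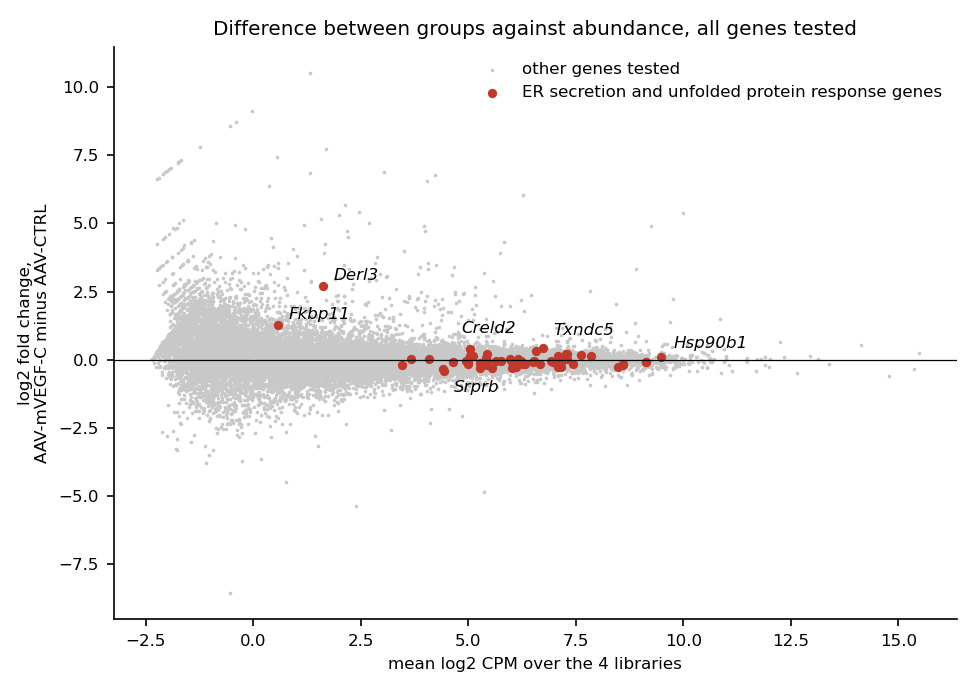
Log2 fold change of AAV-mVEGF-C against AAV-CTRL (y axis) against the mean log2 CPM over the 4 libraries (x axis) for all 19806 genes tested (grey) and the 56 genes of the module (red). *Derl3* (2.70) and *Fkbp11* (1.27) lie at low abundance, where the other genes also spread widely, and the rest of the module lies within −0.41 to 0.44.

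Other genes of the same pathways, in lists that do not overlap with the module, also had 0 calls after adjustment. Among 19 other regulators and targets of the unfolded protein response, 12 were above 0 with a median of 0.04. *Xbp1*, the transcription factor whose mRNA is spliced by IRE1, was at 119 and 105 CPM in the controls and at 128 CPM in both AAV-mVEGF-C libraries (0.19, standard error 0.15; 0.28 without AAV-CTRL 1 and 0.10 without AAV-CTRL 2). It is also 1 of the plasma cell markers described further on, and spliced and unspliced forms are not separated in these gene-level values. *Slc7a11*, a cystine transporter induced by ATF4, was at 41.2 and 36.1 CPM in the controls and at 58 and 52.2 CPM with AAV-mVEGF-C. Its groups were apart, with a log2 fold change of 0.51 (standard error 0.17; 0.61 without AAV-CTRL 1, 0.42 without AAV-CTRL 2, and 0.27 on the log2(TPM + 1) scale), an unadjusted p of 0.0223, and an adjusted p of 0.999 in the edgeR quasi-likelihood test. *Ddit4*, another stress-responsive gene, was at 26.3 and 9.48 CPM in the controls and at 29.2 and 21.7 CPM with AAV-mVEGF-C (0.50, standard error 0.47), with controls that lay further apart than the groups did. Without AAV-CTRL 1 its log2 fold change was 1.42 (adjusted p = 0.00993 in that edgeR fit), and without AAV-CTRL 2 it was −0.05 (adjusted p = 0.892).

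In 16 other genes of ER-associated degradation, 8 were above 0, and the median was 0.00. The ATPase *Vcp*, which pulls proteins out of the membrane, was at 299 CPM in AAV-CTRL 1 and at 199 to 227 CPM in the others (−0.30, standard error 0.20; −0.09 without AAV-CTRL 1 and −0.49 without AAV-CTRL 2). *Man1b1*, a mannosidase, was at 76.6 and 85.8 CPM in the controls and at 89 and 109 CPM with AAV-mVEGF-C (0.29, standard error 0.17; 0.21 without AAV-CTRL 1 and 0.36 without AAV-CTRL 2). Of 23 other ER folding enzymes, 5 were above 0 with a median of −0.12. *Fkbp9*, a prolyl isomerase, was at 23.1 and 24.6 CPM in the controls and at 10.1 and 14.6 CPM with AAV-mVEGF-C. Its groups were well apart, with a log2 fold change of −0.95 (standard error 0.24; −0.99 without AAV-CTRL 1 and −0.91 without AAV-CTRL 2), an unadjusted p of 0.00786, and an adjusted p of 0.999 from edgeR, and the fibroblast markers named above had a median of −0.92 (−1.16 without AAV-CTRL 1 and −0.51 without AAV-CTRL 2), with all 6 below 0 in these 3 fits. Without the filter on low counts edgeR called the fibroblast markers *Col1a1* (−0.99, adjusted p = 0.000972), *Col1a2* (−0.94, adjusted p = 0.00215), and *Dcn* (−0.95, adjusted p = 0.0078). It did not call *Col3a1*, *Lum*, or *Pdgfra*, and it called 0.659% of all genes. The part of fibroblasts in the level of *Fkbp9* was not tested.

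*Txndc12*, an ER thioredoxin, was at 44.2 CPM in AAV-CTRL 1 and at 22 to 23.6 CPM in the other libraries (−0.53, standard error 0.33), so its difference came with AAV-CTRL 1 alone, was 0.06 without it, and was −0.96 without AAV-CTRL 2 (adjusted p = 0.0139 in edgeR). In 23 other genes of targeting, translocation, and glycosylation, 7 were above 0 with a median of −0.04. *Tram2*, a translocating chain-associated membrane protein, was at 25.4 and 29.6 CPM in the controls and at 37.5 and 37.6 CPM with AAV-mVEGF-C (0.45, standard error 0.17; unadjusted p = 0.0416, adjusted p = 0.999 in edgeR), with its groups apart (0.34 without AAV-CTRL 1 and 0.56 without AAV-CTRL 2). *Srp19*, a signal recognition particle protein, was at 29.4 and 19.3 CPM in the controls and at 18.9 and 19.1 CPM with AAV-mVEGF-C (−0.36, standard error 0.25). Here again AAV-CTRL 1 alone stood out, and the value was −0.02 without AAV-CTRL 1 and −0.64 without AAV-CTRL 2.

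Of 30 genes of ER to Golgi transport, 10 were above 0 with a median of −0.12 (−0.00 without AAV-CTRL 1 and −0.23 without AAV-CTRL 2). *Sar1b*, a GTPase of COPII vesicles, was at 26.3 CPM in AAV-CTRL 1 and at 13.3 to 14.1 CPM in the others (−0.58, standard error 0.32), while the COPII coat gene *Sec24a* was at 24 CPM in AAV-CTRL 1 and at 44.4 to 46.3 CPM in the others (0.35, standard error 0.31). Both differences thus rested on that library, which lay on opposite sides of the rest, and without AAV-CTRL 2 they were −0.97 and 0.89 (adjusted p = 0.0238 and 0.0184 in edgeR). The 16 cytosolic heat shock and chaperone genes, a stress response outside the ER, had 9 above 0 and a median of 0.05. Without AAV-CTRL 1 the median of these 16 was −0.08 with 3 above 0, and without AAV-CTRL 2 it was 0.23 with 11 above 0. *Hspa1a* was at 138 and 349 CPM in the controls and at 144 and 621 CPM with AAV-mVEGF-C (0.65, standard error 0.71). *Hspa1b* was at 94.5 and 278 CPM in the controls and at 104 and 512 CPM with AAV-mVEGF-C (0.73, standard error 0.78). Both heat shock genes were high in the libraries numbered 2 of either group and low in those numbered 1, and the near-identical pair can share reads.

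Both AAV-mVEGF-C libraries lay above both controls for 7 of 11 markers of plasma cells, where 16.8% of all genes tested did so. Log2 fold changes were below 0 for *Irf4* (−0.18), *Pou2af1* (−0.16), and *Tnfrsf13b* (−0.08), whose groups overlapped. Of the 11 plasma cell markers, 8 were above 0 with a median of 0.53 (0.41 without AAV-CTRL 1 and 0.56 without AAV-CTRL 2), none of them was at 0, and their summed level was 733 and 840 CPM in the controls and 1246 and 1279 CPM with AAV-mVEGF-C. Most of that gap lay in *Jchain*, the joining chain of secreted IgA and IgM, which is outside the rule for named genes and was singled out after its values were seen. It was at 261 and 269 CPM in the controls and at 672 and 680 CPM with AAV-mVEGF-C, a log2 fold change of 1.35 (standard error 0.16), which DESeq2 called (adjusted p = 1.81e-09) and edgeR did not (adjusted p = 0.331). In edgeR it was called without the filter (adjusted p = 9.9e-07), without AAV-CTRL 1 (1.33, adjusted p = 0.00627), and without AAV-CTRL 2 (1.37, adjusted p = 0.00658). The other 10 markers summed to 471 and 571 CPM in the controls and to 574 and 599 CPM with AAV-mVEGF-C. *Mzb1*, an ER cochaperone of B cells and plasma cells, was at 9.39 and 18.1 CPM in the controls and at 21.2 and 27.2 CPM with AAV-mVEGF-C (0.82, standard error 0.34; adjusted p = 0.999 in edgeR), and its log2 fold change was 0.42 (adjusted p = 0.707) without AAV-CTRL 1 and 1.36 (adjusted p = 0.0139) without AAV-CTRL 2. Markers of B cells had 1 of 11 above 0, with a median of −0.34 that was −0.77 with 0 of 11 above 0 without AAV-CTRL 1 and 0.15 with 10 of 11 above 0 without AAV-CTRL 2, and summed levels of 372 and 812 CPM in the controls and 398 and 433 CPM with AAV-mVEGF-C. Without the filter on low counts edgeR called the B cell markers *Ms4a1* (−0.85, adjusted p = 0.00633), *Cd79a* (−0.79, adjusted p = 0.0193), and *Cd79b* (−0.78, adjusted p = 0.027), and none of the others. The part of plasma cell numbers in the levels of *Derl3*, *Fkbp11*, *Txndc5*, and *Creld2* was not tested, and these bulk values do not give it.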

How the data were processed

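Total RNA of sorted dural CD45+ cells was made into libraries with the SMARTer stranded total RNA pico kit. The authors deposited estimated counts per gene, of which 8.18% were not whole and which were rounded here, and TPM values per gene, that is, reads scaled for gene length and to a fixed sum per library. The submitters' processing notes name FastQC, Trimmomatic, DRAGEN, Picard, and the build mm10, and the study's methods name DESeq2 for the authors' own tests. Coordinates of genes were taken from GENCODE M21 for GRCm38 (54349 identifiers matched with their version). Promoters came from a RefSeq table of GRCm38.p6, and protein sequences were not used here.

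Counts were analysed in R 4.3.3 with edgeR 4.0.16: genes low in counts were removed by filterByExpr (19806 tested, 35595 not tested), library sizes were scaled by TMM (factors 0.964 to 1.03), and the groups were compared by glmQLFit and glmQLFTest, with 2-sided p-values and Benjamini-Hochberg adjustment over all genes tested. The common dispersion was 0.173. Standard errors and 95% intervals come from the same fit, and CPM values use the TMM-scaled library sizes. Alternatives were DESeq2 1.42.0, limma 3.58.1 (voom, and log2(TPM + 1) and log2(TPM + 0.1)), RLE size factors, other filters, a replicate block, and each library left out. The edgeR and DESeq2 fits were tested on simulated data.

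The genes, pathway lists, and marker lists were chosen with earlier results of these data known. Genes were described library by library if called in edgeR or DESeq2, at an unadjusted p under 0.05 in edgeR, of the 2 largest or the smallest differences of their role, of the 2 largest of a pathway list at 10 CPM or more, or among *Hspa5*, *Hsp90b1*, *Ern1*, *Atf6*, *Eif2ak3*, *Atf4*, *Ddit3*, *Xbp1*, and *Mzb1*. Others named were chosen after their values were seen. Depth was 32520709 to 46409700 reads per library.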

Additional observations from a re-analysis of the deposited data

How the results depend on the processing

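Every setting other than those named here left the count of the 56 genes called at 0. Without the filter on low counts 1 gene was called, *Derl3*, and the median of all genes tested moved by 0.22. The number at an unadjusted p under 0.05, 1 in the edgeR fit reported, was 2 with limma-voom (*Derl3*, *Txndc5*), 2 without the filter, and 3 with limma on log2(TPM + 1) or log2(TPM + 0.1) (*Manf*, *Derl3*, *Ddit3*). The TPM fits moved the median of all genes by −0.08 and −0.11, and with them the medians of the module to −0.19 and −0.20, of isomerases to −0.11 in both, of oligosaccharyltransferase to −0.23 and −0.24, and of cargo receptors to −0.20 and −0.21. Among the other lists the TPM fits gave −0.09 and −0.10 for other unfolded protein response genes, −0.21 in both for degradation, −0.26 and −0.27 for folding enzymes, −0.21 and −0.23 for targeting, and −0.15 and −0.16 for heat shock genes. The unfolded protein response list was at 0.07 with voom and 0.01 without the filter. Signs turned in both TPM fits for *Fkbp2* (−0.20, −0.21), *Sec61a1* (0.30, 0.31), *Hsp90b1* (−0.02 in both), *Atf6* and *Atf4* (−0.01 in both each), and on log2(TPM + 1) also for *Ssr4* (−0.02), *Ssr1* (0.06), *Srp54a* (0.05), *Sec62* (−0.00), *Hyou1* (−0.11), *Txndc11* (−0.08), *Edem2* (−0.02), and *Dad1* (−0.20), and without the filter for *Fkbp2* (−0.00) and *Derl2* (−0.01). The ratio of the summed TPM, 0.866, was 0.969 in CPM and 1.02 as a share of protein-coding TPM, a scale chosen after seeing the data. The cause of these moves was not tested.

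When a library was left out, the lone library of its group was assumed to vary like the others. The genes called ran from 0 to 3 and those at an unadjusted p under 0.05 from 0 to 14, both highest without AAV-CTRL 2. Medians ran from −0.16 to 0.05 for the module, −0.07 to 0.15 for isomerases, −0.24 to 0.09 for targeting, −0.39 to 0.12 for signal peptidase, −0.06 to 0.12 for other unfolded protein response genes, −0.04 to 0.08 for other degradation, −0.22 to −0.01 for other folding enzymes, −0.17 to −0.02 for other targeting, and −0.27 to 0.26 for heat shock genes. Signs turned for *Dnajb9* (−0.23 to 0.21), *Fkbp2* (−0.13 to 0.16), *Derl2* (−0.17 to 0.22), *Sec61a1* (−0.16 to 0.09), *Spcs2* (−0.49 to 0.03), *Spcs3* (−0.29 to 0.20), *Eif2ak3* (−0.13 to 0.09), *Rpn1* (−0.50 to 0.04), *Ddost* (−0.17 to 0.04), *Atf4* (−0.01 to 0.27), *Ddit4* (−0.05 to 1.42), *Txndc12* (−0.96 to 0.06), *Sec24a* (−0.05 to 0.89), *Hspa1b* (−0.84 to 1.70), and *Hspa1a* (−0.75 to 1.47).

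The titles number the libraries of each group as experiment 1 and 2 without saying whether same-numbered libraries were prepared together. Over all genes tested, same-numbered libraries did not deviate together (correlation of deviations from the group means −0.134 on edgeR's log2 CPM and −0.0353 on log2(CPM + 1)). Some genes did go with the number. *Hspa1a*, *Hspa1b*, and *Col3a1* (69.4 and 125 CPM in the controls, 42.5 and 77.1 CPM with AAV-mVEGF-C) were higher in the libraries numbered 2. Such a correlation cannot show whether a preparation was shared, and the edgeR fit reported was made without the experiment number. With it as a replicate block edgeR called 11 genes and 0 of the module, *Derl3* was the 1 gene of the module at an unadjusted p under 0.05 (*Txndc5* was at 0.0552), and the median of the other unfolded protein response genes was 0.07. With the pairing crossed, a fit chosen after seeing the data, 54 genes and 0 of the module were called, 2 of the module were at an unadjusted p under 0.05, and that median was again 0.07.

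With 2 pools a group, differences of the size measured for most of these genes could not be told from the spread between pools.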

Other observations

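The RNA of the signal recognition particle itself, 7SL, was not among the 56 genes but was the most abundant transcript on the TPM scale, and its values were looked at after the protein genes had been seen. *Rn7s1* held 29.4% and 25.6% of all TPM in the controls and 24.8% and 28.2% with AAV-mVEGF-C, and *Rn7s2* held 1.80% and 3.19% against 2.82% and 3.51%. On the CPM scale *Rn7s1* had a log2 fold change of 0.25 (standard error 0.15) and *Rn7s2* of 0.64 (standard error 0.30). Without AAV-CTRL 1 they were 0.33 and 0.26, and without AAV-CTRL 2 they were 0.18 and 1.14, where edgeR called *Rn7s2* (adjusted p = 0.047). With all libraries neither RNA passed edgeR's test (adjusted p = 0.999), and on the log2(TPM + 1) scale *Rn7s1* was at −0.05. Reads of these near-identical copies can be divided in other ways.

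Markers of further cell types were also measured. Of the T cell markers 6 of 7 were above 0 with a median log2 fold change of 0.22 (0.37 without AAV-CTRL 1 and 0.01 without AAV-CTRL 2). Of the macrophage markers 0 of 9 were above 0 (median −0.22), but 7 of 9 were without AAV-CTRL 2 (0.03). Of the plasmacytoid dendritic cell markers 0 of 6 were above 0 (−0.18), but 5 of 6 were without AAV-CTRL 2 (0.32). Of the neutrophil markers 5 of 11 were above 0 (−0.04), with 11 of 11 without AAV-CTRL 1 (0.68) and 1 of 11 without AAV-CTRL 2 (−0.46). Of the mast cell markers 0 of 6 were above 0 (−0.62; −0.29 with 1 of 6 without AAV-CTRL 1 and −0.85 with 0 of 6 without AAV-CTRL 2), of the endothelial markers 1 of 5 (−0.24), and of the osteoblast markers 3 of the 5 tested (0.02; −0.99 with 0 of 5 without AAV-CTRL 1 and 0.61 with 3 of 5 without AAV-CTRL 2). With all 4 libraries and the filter on low counts edgeR called none of these markers after adjustment, and without the filter it called the osteoblast marker *Alpl* (−0.89, adjusted p = 0.0137), whereas some neutrophil and osteoblast markers were called when either control was left out and some mast cell and T cell markers without AAV-CTRL 2.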
